A study of Caenorhabditis elegans with 2 samples.

Results

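The strong regions shared by both replicates of a chromatin immunoprecipitation and sequencing (ChIP-seq) study of CEH-9 were described by gene, feature, chromosome and sequence. The 5000 strongest nuclear regions of each replicate, by the peak caller's signal value, were kept. The shared regions were chosen by these signal values and by position: a kept replicate 1 region counted as shared when its summit, the point of strongest signal, lay within 200 bp of a kept replicate 3 summit. This gave 369 shared regions, among 30000 regions listed in replicate 1 and 30000 in replicate 3. The other 4631 kept regions of replicate 1 are called unmatched and serve as the comparison. Because the signal values of both replicates entered the choice, signal, rank and q-value are given as descriptions.

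Chromatin came from whole L3 larvae, males and females pooled, of Caenorhabditis elegans strain OP202. The strain has the genotype unc-119(ed3) III; wgIs202 and stably expresses CEH-9 with a GFP-FLAG tag at its C terminus. The 2 libraries, biological replicates 1 and 3, form 1 group, and no second group was analysed here. The labels give ceh-9 as the antibody target and the assay as transcription factor ChIP-seq, although a description line for each library reads as input. Whole larvae were used, so a region cannot be placed in a cell type. The label says nothing of which cells express the transgene. Read depth is unknown here.

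CEH-9 is a homeodomain protein. Homeodomain proteins are transcription factors that bind short A- and T-rich DNA words, often with TAAT at their core, and control cell fate in many tissues. In ChIP-seq, DNA bound by the tagged protein is pulled down and sequenced, and positions with more fragments than a control alignment are listed as regions. Chromatin that is open or highly transcribed, such as promoters and tRNA genes, is known to appear in ChIP-seq lists of many unrelated factors.

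The strongest shared regions are shown first, because they are the few that ranked near the top of both lists. Shared regions were ordered by the worse of their 2 ranks, so that the first is the best in both. Of the 25 best, 9 lay on X. The 8-base words common to these 9 regions were counted in the 100 bases to either side of a summit, reading either strand. The word CCCTTCGC (GCGAAGGG on the other strand) was held by 5 of the 9, and 8 further words by 4 of the 9. Most of the 9 words overlap each other, and they form 2 stretches, one around CCCTTCGC and one around CCCTGCGC. Some of the words around CCCTGCGC are part of a longer motif known in this species from sites on X where the dosage compensation complex, which lowers X transcription in hermaphrodites, is recruited. Of these 9 X regions, the 5 that held any of the words are printed as the replicate 1 summit and the 100 bases to either side. The plus strand of RefSeq WBcel235 (build ce11) is shown, and each region is named by the nearest gene start. Capitals mark every copy of the 9 words.
nspc-17, chrX:14525736-14525936: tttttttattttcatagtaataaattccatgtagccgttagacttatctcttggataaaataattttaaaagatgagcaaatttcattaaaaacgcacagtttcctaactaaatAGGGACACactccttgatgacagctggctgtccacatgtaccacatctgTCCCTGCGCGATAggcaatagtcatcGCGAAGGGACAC
F20B6.9, chrX:4209191-4209391: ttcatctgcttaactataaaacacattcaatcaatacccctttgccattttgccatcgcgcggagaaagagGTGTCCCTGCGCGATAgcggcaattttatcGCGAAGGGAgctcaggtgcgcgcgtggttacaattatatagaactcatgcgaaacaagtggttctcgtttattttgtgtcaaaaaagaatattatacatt
WBGene00014538, chrX:11094081-11094281: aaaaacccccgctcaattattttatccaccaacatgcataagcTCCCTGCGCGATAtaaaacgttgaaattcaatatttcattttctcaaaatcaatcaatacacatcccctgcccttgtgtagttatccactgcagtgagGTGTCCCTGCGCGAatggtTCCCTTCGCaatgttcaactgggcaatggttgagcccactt
K02D3.5, chrX:13700811-13701011: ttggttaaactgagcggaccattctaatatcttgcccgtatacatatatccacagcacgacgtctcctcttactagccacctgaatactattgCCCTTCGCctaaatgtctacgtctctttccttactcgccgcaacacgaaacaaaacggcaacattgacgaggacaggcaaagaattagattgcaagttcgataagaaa
cest-16, chrX:6296500-6296700: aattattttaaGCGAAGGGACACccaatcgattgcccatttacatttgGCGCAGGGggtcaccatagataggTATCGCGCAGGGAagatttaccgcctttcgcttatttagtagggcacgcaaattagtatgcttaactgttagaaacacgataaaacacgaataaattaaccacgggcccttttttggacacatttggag

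The regions at nspc-17, F20B6.9, WBGene00014538 and cest-16 held all 9 words, and that at K02D3.5 held 1. Among the other 73 shared regions on X, 3 held 2 or more of the words, nearest to gtr-1, F22H10.2 and fbxb-58. No shared region on an autosome did (0 of 287, which allows up to 1.28%, exact 95% interval). Of unmatched autosomal regions, 6 of 3712 did (0.162%), a share inside that interval. The 0 holds for 2 or more words only. Some autosomal shared regions held 1 word, as K02D3.5 did, among them the region at R07E5.16 of the 25 best. Of unmatched X regions, 8 of 919 held 2 or more of the words, and 7 of these were among the 88 with rank 500 or better. Shared X regions of rank 500 or better held them at 7 of 35. These 35 include the 9 regions that gave the words, and 4 of those 9 are among the 7. The 7 of 35 is therefore not compared with the unmatched count. Of all 29970 nuclear regions of replicate 1, 53 held 2 or more of the words. The words were taken from 9 of these regions after the data were seen, so these counts describe them and no test was run.

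The next 3 regions in the order held none of the words and are shown for contrast. Capitals mark the longest run of only purines or only pyrimidines, of 12, 9 and 13 bases.
F54E4.9, chrX:14649656-14649856: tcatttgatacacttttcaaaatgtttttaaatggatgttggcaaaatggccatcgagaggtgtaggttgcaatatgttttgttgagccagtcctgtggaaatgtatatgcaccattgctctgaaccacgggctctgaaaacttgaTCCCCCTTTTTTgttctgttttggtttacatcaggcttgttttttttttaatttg
F09A5.11, chrX:13145256-13145456: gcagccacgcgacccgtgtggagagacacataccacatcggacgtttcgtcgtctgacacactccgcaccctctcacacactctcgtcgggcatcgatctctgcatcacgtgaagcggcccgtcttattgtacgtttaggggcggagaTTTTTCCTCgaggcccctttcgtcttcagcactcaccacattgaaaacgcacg
21ur-8995, chrIV:14371752-14371952: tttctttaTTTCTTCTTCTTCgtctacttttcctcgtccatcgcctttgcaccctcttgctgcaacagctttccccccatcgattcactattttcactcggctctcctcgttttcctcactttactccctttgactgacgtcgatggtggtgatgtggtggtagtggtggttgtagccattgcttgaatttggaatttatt

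The order of these regions was set by their signal ranks, so their values are a description. The best region, whose summit was 655 bp upstream of nspc-17 (WBGene00008359; a nematode-specific peptide gene), lay on X from 14525684 to 14525987. Its signal value was 43.6 in replicate 1 and 23.8 in replicate 3, at ranks 1 and 3. The region nearest to F20B6.9 had 36.9 and 23.7, at ranks 3 and 4. The region nearest to the tRNA gene WBGene00014538, which is 1492 bp away, had 31.4 in replicate 1 and 30.2 in replicate 3, at ranks 9 and 1. Only these 3 of the 369 were among the 10 strongest nuclear regions of both lists. The region near the non-coding RNA gene K02D3.5 had 33.5 and 19.3, at ranks 7 and 15. The region inside an intron of mom-1, which acts in the secretion of Wnt proteins, with cest-16 as the nearest start, had 31.8 and 15.6, at ranks 8 and 86.

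Across all 369 shared regions the signal value ran from 8.74 to 43.6 in replicate 1, with a median of 11.3. In replicate 3 it ran from 8.56 to 30.2, with a median of 10.1. The unmatched regions had a median of 10.4 in replicate 1. Spearman's rho of the signal values over the 369 regions was 0.17. Both lists were called against the same control alignment, so this correlation is a description. Some regions that were high in 1 list lay near the lower limit of the other. The region at fbxb-58, an F-box gene, had 34.5 in replicate 1 and 9.16 in replicate 3, at ranks 6 and 3826. The region 65 bp from a start of snt-4, a synaptotagmin family gene, had 9.20 and 19.7, at ranks 4086 and 13.

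**Figure D1:**
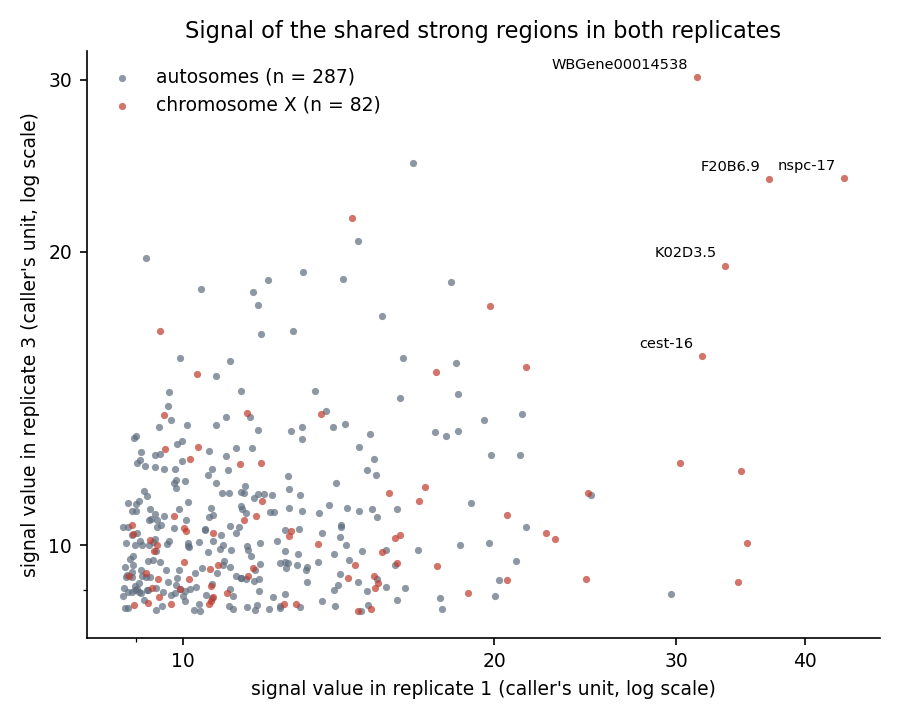
Signal value of each of the 369 shared regions in replicate 1 (x axis) and replicate 3 (y axis), in the caller's unit on log scales, red for chromosome X and grey for autosomes. The 5 best regions, all on X and labelled by nearest gene, lie at 31.4 to 43.6 in replicate 1 and 15.6 to 30.2 in replicate 3, where other regions reach similar values.

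Stronger regions of replicate 1 were shared more often. Of the 5000 kept regions of replicate 1, 369 (7.38%, exact 95% interval 6.67 to 8.14) had a partner. Of the regions outside the 5000 strongest, 4.04% lay within 200 bp of a kept replicate 3 summit. Those 200 bp surroundings cover 1.98% of nuclear bases. The share fell along the list, from 50 of 250 (20%, 15.2 to 25.5) at ranks 1 to 250 and 37 of 250 (14.8%, 10.6 to 19.8) in the next 250. It was 7.6% (38 of 500) in the 500 after those and 5.3% (53 of 1000) in the last 1000. The rule used these ranks, so the fall is a description. The intervals here and elsewhere cover counting error only.

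The rule admits only shared summits within 200 bp of each other, so their distances are a description. The median distance was 73 bp, and 143 of the 369 were at 50 bp or less. The number of kept regions fell from 143 at 50 bp or less to 62 in the last 50 bp inside the limit and 46 in the first 50 bp beyond it. From there to 1000 bp it averaged 26.5 per 50 bp, with a range of 17 to 46. Just inside the limit, 13 shared regions had their partner in the last 10 bp, the farthest at 200 bp. Just outside it, 10 unmatched regions had one in the next 10 bp, the nearest at 203 bp. The last kept signal value was 8.71 in replicate 1 and 8.54 in replicate 3.

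**Figure D2:**
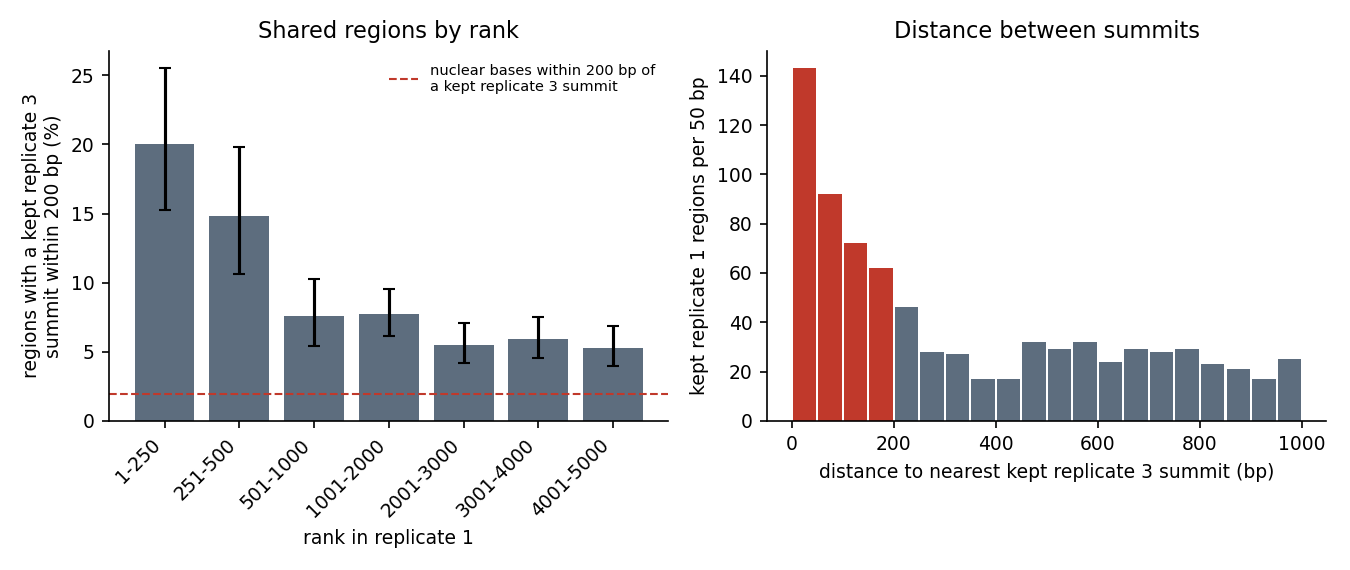
Left, the share of replicate 1 regions with a kept replicate 3 summit within 200 bp, by replicate 1 rank, with exact 95% intervals, and the share of nuclear bases that close (dashed, 1.98%). Right, kept replicate 1 regions per 50 bp of distance to the nearest kept replicate 3 summit, red up to 200 bp. The share falls from 20% to 5.3% along the ranks, and the count falls from 143 to a tail averaging 26.5.

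The q-values of the 2 libraries differed in range. In replicate 1, 259 of 369 shared regions (70.2%) had a q-value under 0.05, against 2762 of 4631 unmatched regions (59.6%) and 10.1% of all nuclear regions. In replicate 3, 11 of 369 (2.98%) did, against 0.08% of all its regions. In both lists 10 did. These q-values come from the contrast that chose the regions, and nothing is read from the counts. The authors' pooled list, made from the same libraries, held a region within 200 bp of 364 of the 369, at a median pooled rank of 537.5. It held 2670 of 4631 unmatched regions (57.7%). Within 200 bp of a peak in the authors' reproducible set of 45 lay 29 shared regions and 16 unmatched ones. Regions and not peaks were counted, so these numbers do not divide the 45 peaks. Of the 25 best shared regions, 12 lay that close to such a peak.

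Strong regions of replicate 1 without a kept partner help to place the shared ones. Of its 10 strongest nuclear regions, 8 were shared and 9 lay on X. The other two were at the tRNA gene WBGene00023117 on X, with a signal value of 38.8 (rank 2), and near Y52B11B.1 on I, with 31.0 (rank 10). Both had a replicate 3 region within 200 bp, at ranks 8803 and 5891, below the 5000 kept. Of all 4631 unmatched regions, 3585 (77.4%) had no replicate 3 region of any rank within 200 bp. Of the 10 strongest regions of replicate 3, 6 were shared. The strongest unshared one, 82 bp from the start of a pseudogene (WBGene00014891) on V, had a signal value of 23.1 and no replicate 1 region within 200 bp.

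Summits were then compared with gene structure. Of 369 shared summits, 183 (49.6%, 44.4 to 54.8) lay in a promoter window, which spans 1000 bp before and 200 bp after the start of an annotated transcript. The share was 43.7% (42.3 to 45.2) in unmatched regions, 41.5% in all nuclear replicate 1 regions and 38.4% in the kept replicate 3 regions. Such windows cover 38.6% of nuclear bases. The intervals of shared and unmatched regions overlapped, and with the 10000 strongest kept the shares were 43.8% and 43.6%. Introns outside promoter windows held 13% (48 of 369, 9.75 to 16.9) of shared and 18.2% (17.1 to 19.4) of unmatched summits, with intervals that did not overlap, against 24.2% of nuclear bases. Exons held 23% and 24.6%, intergenic sequence 10.6% and 9.54%, and the 1000 bp downstream of genes 3.79% and 3.91%. No test was run over regions, since the regions of a library are not replicates.

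**Figure D3:**
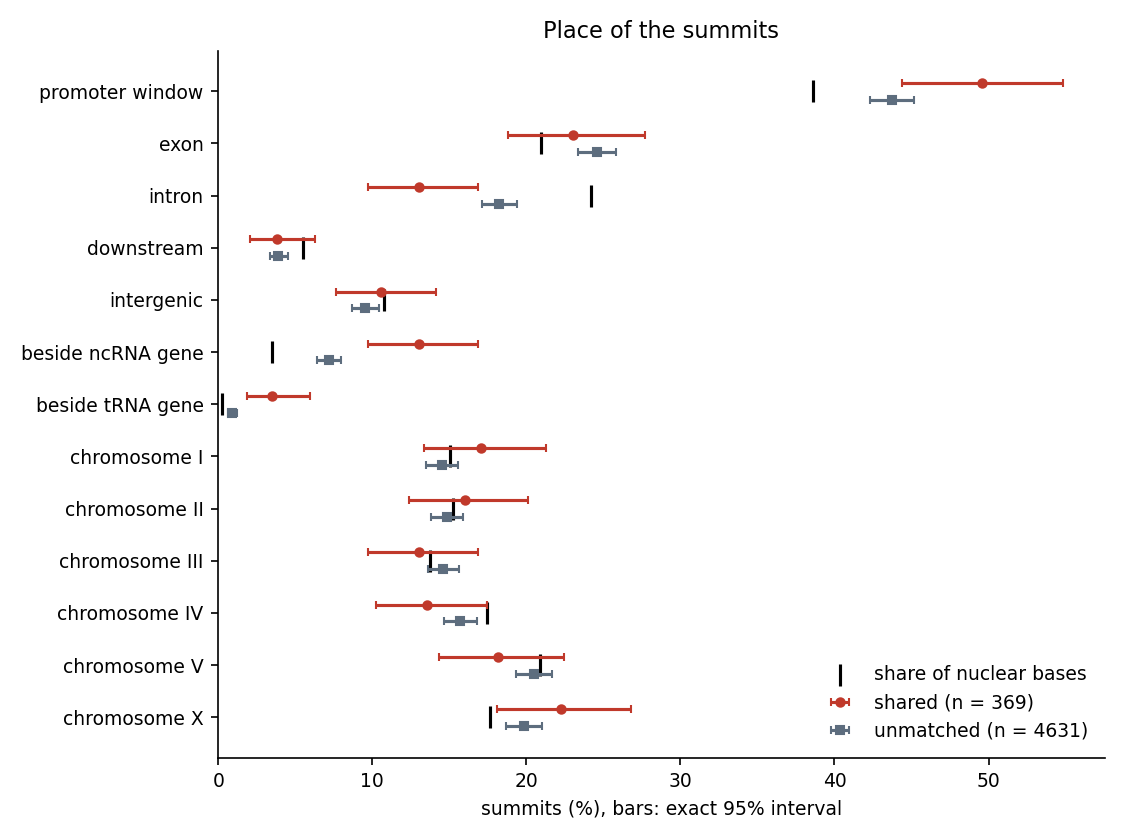
Share of summits (x axis, %) in each feature class, beside non-coding RNA and tRNA genes, and on each chromosome, for 369 shared (red) and 4631 unmatched (grey) regions, with exact 95% intervals, and the share of nuclear bases (black ticks). Shared summits lie above unmatched ones beside non-coding RNA genes (13% and 7.17%) and tRNA genes (3.52% and 0.907%), and below them in introns. A summit beside genes of both classes counts in both.

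Protein-coding promoters held 123 shared summits, and 60 of the 183 promoter summits lay only in windows of other genes. The 123 summits gave 142 pairs of a coding gene and a region, with the summit upstream of the start in 119 pairs and within 200 bp of it in 50. The median summit lay 328 bp upstream. The window reaches 1000 bp upstream and only 200 bp downstream, so its shape places most pairs upstream, and nothing is read from these positions. Among the 25 best regions, the summit lay 20 bp upstream of egl-21, which encodes a carboxypeptidase of neuropeptide processing. Its signal values were 18 in replicate 1 and 12.9 in replicate 3, at ranks 143 and 442. It lay 275 bp upstream of eat-16, which encodes a regulator of G protein signalling, with 19.5 and 13.5, in a region whose nearest start is that of C16C2.7. It lay 259 bp upstream of sec-61.G, for a subunit of the protein translocon, with 18.4 and 13.1. It lay 598 bp upstream of gap-3, for a Ras GTPase-activating protein, with 17.5 and 13.1. All 4 had the higher signal value in replicate 1, but the scaling of the lists is not given.

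Other regions of the 25 best near coding genes were T26E3.4 (26 bp upstream, signal values 21.3 and 13.6), F46B6.2 (11 bp upstream, 15.6 and 17.2) and Y17D7C.2 (322 bp upstream, 18.5 and 14.3). An intron of zfp-1, a chromatin factor gene, held a region with 18.2 in replicate 1 and 18.6 in replicate 3, at ranks 134 and 23, with F54F2.6 as the nearest start. An intron of larp-1, for an RNA-binding protein, held a region with 16.3 and 15.6. Exons held the regions in epi-1, a laminin gene (16.2 and 14.2, 6568 bp from the nearest start), and in cyk-3, for a ubiquitin hydrolase (ranks 358 and 418). The region nearest to F07H5.7, 2560 bp away, was intergenic (14.3 and 13.3).

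The nearest genes of the best regions were of several classes. Of the 25 best, the nearest start belonged to a non-coding RNA gene of no finer class in 6, to a tRNA gene in 2, and to a piRNA, an snRNA and a snoRNA gene in 1 each. It belonged to a protein-coding gene in 14. The annotation holds 24789 non-coding RNA genes and 19973 protein-coding ones, and nothing is read from these counts. The snRNA gene R07E5.16 on III, which lies inside dhc-4, a dynein heavy chain gene, had its start 27 bp from a summit with 16.7 in replicate 1 and 24.6 in replicate 3, at ranks 207 and 2. The snoRNA gene ZK994.7 on V, inside pxn-1, a peroxidasin gene, had its start 20 bp from a summit with 14.8 and 20.5, at ranks 409 and 10. Between the tRNA genes WBGene00023111 and WBGene00023110 on X lay a summit with 14.6 and 21.6, at ranks 436 and 7. These 3 regions were all higher in rank in replicate 3. The non-coding RNA genes F54E4.9 (19.8 and 17.6), F09A5.11 (21.4 and 15.2), H01A20.4 (17.6 and 15.1) and F58H1.20 (14.3 and 18.8) had starts 85 to 185 bp from a summit. The piRNA gene 21ur-8995 on IV lay 325 bp from a summit with 18.4 and 15.4.

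tRNA genes, which RNA polymerase III transcribes to make the adaptors of translation, lay beside 13 shared summits. This was 3.52% (1.89 to 5.95) within 200 bp of the gene body, against 42 of 4631 unmatched summits (0.907%, 0.654 to 1.22) and 0.272% of nuclear bases. The intervals did not overlap. The 369 strongest regions of replicate 3 alone had 1.08% and those of replicate 1 alone 3.25%. Of the 13, 9 lay on X, as did 20 of the 42 unmatched ones and 276 of all 612 nuclear tRNA genes (45.1%). Counted by gene, 20 of 612 tRNA genes had a shared summit in a promoter window, at 14 regions, where 0.649% of all non-coding RNA genes did (161 of 24789). Unmatched regions had 61 of 612, and 5.58% of non-coding genes. Of the 24789 genes, 15363 are piRNA genes, with the low shares of 0.319% for shared and 3.82% for unmatched summits. They lower both baselines. The best-ranked tRNA gene was WBGene00023221 on V, whose window holds the ZK994.7 region, then the pair WBGene00023111 and WBGene00023110. After these came WBGene00000308 (15.8 and 11.3) and WBGene00023042 (16.9 and 11.1), both on X. Neighbouring tRNA genes share a region, so genes are not independent counts.

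Of the other non-coding classes, non-coding RNA genes of no finer class lay beside 48 shared summits (13%, 9.75 to 16.9), against 7.17% (6.44 to 7.95) of unmatched ones and 3.5% of nuclear bases. Several of these summits are also counted beside tRNA genes, as where M02F4.12 overlaps WBGene00023111, so the 2 classes are not separate counts. By promoter window, 77 of 7764 had a shared summit (0.992%) and 636 an unmatched one (8.19%), beside 0.649% and 5.58% of all non-coding RNA genes. Most genes in that baseline are piRNA genes, which lower it, and a baseline without them was not computed. Nothing is therefore read from a class lying above it. snoRNA genes, which guide RNA modification, had 7 of 346 (2.02%) and 48 with an unmatched summit (13.9%). The 7 were ZK994.7, W01C9.6, B0041.9, F55A11.10, C06A1.9, H06I04.8 and H06I04.9. snRNA genes had 2 of 129 (1.55%), R07E5.16 and sls-2.2, and 7 with an unmatched summit. The latter encodes the SL2 spliced leader used for downstream genes of operons, and its region had 13.1 in replicate 1 and 19.0 in replicate 3. miRNA genes had 4 of 261 (1.53%), and 25 with an unmatched summit. Of the 4, cel-mir-54, cel-mir-55 and cel-mir-56 of the mir-51 family share the X region with 21.4 and 15.2, and cel-mir-8204 had 14.4 and 10.9. lincRNA genes had 2 of 194 (linc-58 and linc-143) and 12 with an unmatched summit. piRNA genes had 49 of 15363 (0.319%) at 12 regions, and 587 with an unmatched summit. rRNA (0 of 20) and antisense RNA genes (0 of 100) had none, against 0 and 7 with an unmatched summit. Pseudogenes had 4 of 2128 (0.188%), WBGene00005928, WBGene00045366, WBGene00000709 and WBGene00023334, and 82 with an unmatched summit.

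Protein-coding gene lists were read against all coding genes, of which 0.711% (142 of 19973) had a shared summit in a promoter window, and 7.83% an unmatched one. The lists hold few genes with a shared summit, and nothing particular is read from them. Of 31 daf and insulin signalling genes, 3 had one (9.68%), and 4 had an unmatched one. Both 14-3-3 genes were among these 3, but ftt-2, par-5 and pdk-1 had been put on the list by name. The list was chosen with earlier results of these data known, so its 9.68% is not compared with the 0.711%. par-5 on IV had its start 333 bp from a summit with 12.6 in replicate 1 and 11.8 in replicate 3, and ftt-2 on X had its start 453 bp from one with 24.7 and 11.3. daf-16, which encodes the FOXO factor of insulin signalling, had an annotated start 611 bp from a summit with 10.4 and 18.3, at ranks 2486 and 26. The signal of ftt-2 was high in replicate 1, that of daf-16 in replicate 3.

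Of 82 cytosolic ribosomal protein genes, 4 had a shared summit (4.88%) and 16 an unmatched one (19.5%). They were rpl-4 (12.9 and 9.54), rpl-2 (9.79 and 10.4), rps-19 (9.06 and 9.15) and ubl-1 (8.84 and 11), which encodes a ribosomal protein fused to a ubiquitin-like one. The rpl-4 and ubl-1 regions were also at snoRNA genes. Of 269 nuclear hormone receptor genes, 4 had a shared summit (1.49%) and 20 an unmatched one. These were nhr-49, a regulator of fat metabolism (19.0 and 11.1), nhr-252 (11.2 and 12.6), nhr-48 (17.6 and 9.53) and nhr-25, a receptor of moulting (10.6 and 9.44). Of 194 cuticle collagen genes, 2 had one, col-109 (10.7 and 9.12) and col-106 (9.83 and 9.10). Of 140 insulin-like and neuropeptide genes, 1 had one, nlp-15 (11 and 12.3).

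No shared summit lay in the promoter window of any of 63 ceh homeobox, 80 histone, 33 translation factor, 22 heat shock, 6 vitellogenin, 10 GATA factor, 6 Hox, 13 Wnt pathway, 20 V-ATPase or 17 tubulin and actin genes. Unmatched summits lay at 3 ceh, 4 histone, 6 translation factor, 2 heat shock, 1 Hox, 2 Wnt, 3 V-ATPase and 3 tubulin and actin genes. At the 0.711% of all coding genes, lists of these sizes would mostly hold none, so nothing is read from these counts of 0. Within 20 kb of ceh-9 there was 1 listed region in each replicate, and neither a shared nor an unmatched one. Within 20 kb of unc-119, the gene mutated in the strain, replicate 1 listed 22 regions and replicate 3 listed 27, and 3 of the replicate 1 regions were unmatched and 0 shared.

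The spacing of shared regions is given as a description. Of the 369, 6 lay within 1 kb of another and 44 within 10 kb (11.9%). A set of 369 is more thinly spread than the 4631 unmatched regions, so their shares are not compared. The largest group, 4 regions, lay on V from 18716426 to 18723811 around Y17D7C.2. Its signal values were 11.9 and 16.5, 14.2 and 10.5, 18.5 and 14.3, and 20.2 and 9.21 in replicates 1 and 3. The order of the 4 differed between the replicates. The coding genes with 2 shared summits in their body were let-526, a chromatin remodelling gene, zfp-1, unc-22 (twitchin, a giant muscle protein), pkc-1 (protein kinase C), odr-2, madd-2, T28F4.1, Y17D7C.2, W06H8.6 and Y72A10A.1. In a promoter window, only W06H8.5, a non-coding RNA gene, had 2.

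By chromosome, X held 82 of 369 shared summits (22.2%, 18.1 to 26.8), against 19.8% (18.7 to 21) of unmatched ones, 19.3% of all nuclear replicate 1 regions and 17.7% of nuclear bases. The intervals of shared and unmatched regions overlapped on each of the 6 chromosomes. I held 63, II 59, III 48, IV 50 and V 67. Conversely, the share of kept regions that were shared ran from 6.43% on IV to 8.57% on I, with 8.19% on X. The X share varied within the shared regions. It was 9 of 25 (36%, 18 to 57.5) in the best 25, 14 of 75 (18.7%, 10.6 to 29.3) in the next 75, 23 of 100 in the next 100, and 36 of 169 (21.3%) in the rest. The 5 regions ranked best were all on X. On autosomes, 109 of 287 shared summits (38%) lay in the middle when each chromosome is cut into 3 equal parts, and 38.7% of unmatched ones.

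The shared regions were richer in G and C than the unmatched ones. Within 100 bp of the summit, the median GC content was 42.8% (95% interval of the median 41.8 to 43.8) in shared regions and 38.3% (38.3 to 38.8) in unmatched ones. It was 36.8% in all nuclear replicate 1 regions, 40.8% in the kept replicate 3 regions and 35.4% over all nuclear bases. The difference was present at every rank: at ranks 1 to 250 the medians were 44% and 40.8%, and in the last 1000 ranks they were 40.3% and 37.8%. Of kept regions under 35% GC, 41 of 1409 (2.91%, 2.1 to 3.93) were shared. At 45% and over, 136 of 973 (14%, 11.9 to 16.3) were. The median share of bases that RefSeq marks as repeat or low complexity was 13.9% in shared and 21.4% in unmatched windows. GC content can affect how well fragments are amplified and sequenced, and its part in the sharing was not tested.

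**Figure D4:**
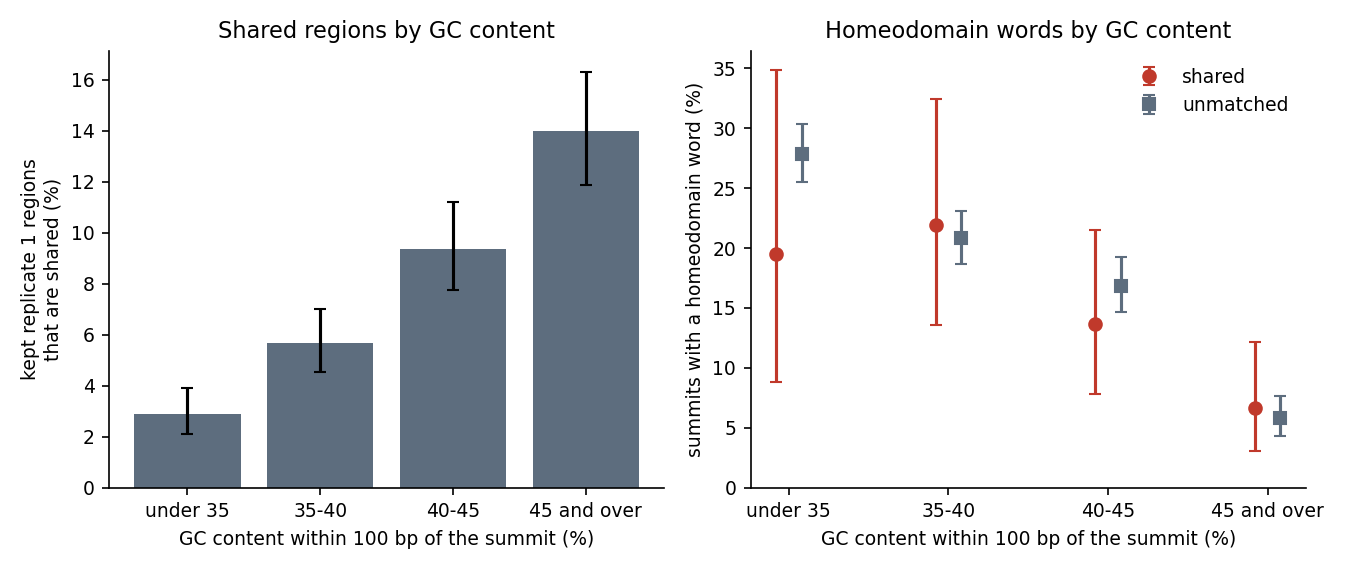
Left, the share of the 5000 kept replicate 1 regions that were shared, by GC content. Right, the share of summits with TAATTA or TAATTG within 100 bp in shared (red) and unmatched (grey) regions, by GC content, all with exact 95% intervals. The shared fraction rises from 2.91% to 14%, and within each GC class the word shares of both sets overlap in their intervals.

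CEH-9 has a homeodomain, so the words TAATTA and TAATTG were counted on both strands. They were present at 50 of 369 shared summits (13.6%, 10.2 to 17.5), among them the regions of F20B6.9, WBGene00014538 and sec-61.G of the 25 best. Unmatched summits held them at 19.3% (18.2 to 20.4), and all nuclear replicate 1 regions at 22.2%. With the 1000 strongest of each list kept, the order turned, to 23.3% of 43 shared and 16.6% of unmatched summits. The word ATTTAA, which has no link to homeodomains and only A and T, moved the same way, at 11.9% and 21.7%. By GC class, the order of the 2 sets varied and their intervals overlapped in each class. Under 35% GC the homeodomain words were at 19.5% of shared and 27.9% of unmatched summits, at 35 to 40% they were 22% and 20.8%, at 40 to 45% they were 13.6% and 16.8%, and at 45% and over 6.62% and 5.85%. The GATA factor word TGATAA was at 11.7% and 16.8%, and the E-box CACGTG at 4.61% and 4.12%. A word in a window is a description and not a bound site.

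Long runs of only purines or only pyrimidines differed between the sets. A run of 20 or more bases was present at 29 of 369 shared summits (7.86%, 5.33 to 11.1), 3.8% (3.27 to 4.39) of unmatched ones and 2.55% of all nuclear replicate 1 regions. None of the 25 best regions had one, and the longest among them, near F07H5.7, had 19 bases. The limit of 20 was chosen after the data were seen. The longest single-base run had a median of 5 bases in shared and 6 in unmatched windows. The central 36 bases of the summit occurred more than once in the genome at 2 of 369 shared and 32 of 4631 unmatched summits (0.542% and 0.691%).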

How the data were processed

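The 2 replicate lists of 30000 regions were used on build ce11, with the list from pooled replicates and the reproducible set. Per the deposited descriptions, peaks and background were called by the authors for each replicate against 1 control alignment, as was a pooled list, and they derived the reproducible set from both replicate lists and the pooled one by the irreproducible discovery rate. Aligner, caller and scaling: not given in the sources used here. The deposited signal value (column 7) is a score with no stated unit. Column 9 of the deposited lists is the −log10 of a q-value. The 30 mitochondrial regions of replicate 1 were dropped.

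Summits were matched in Python 3.11.15 with pandas 2.3.3, and exact (Clopper-Pearson) 95% intervals came from SciPy 1.17.1. Genes came from Ensembl release 115 and sequence from RefSeq, both WBcel235, the assembly of ce11. All regions ended within their chromosomes. Coordinates are 1-based. Features were assigned in the order promoter, exon, intron, downstream, intergenic. The matching and counting were tested on simulated data with planted matches. The ce10 lists gave counts only.

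The regions, gene lists and words were chosen with earlier results of these data known. Named genes were those nearest to the 25 best regions, up to 4 per gene list, genes with 2 or more regions, and classes of 5 or fewer. fbxb-58, snt-4, gtr-1, F22H10.2, the snoRNA genes and the strongest unmatched regions were named after their values were seen. Nothing says that the replicates came from separate cultures beyond their label as biological replicates. Alternatives changed the number kept, the distance, the window, the build, the list of origin and the replicate.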

Additional observations from a re-analysis of the deposited data

Results flagged for a closer look

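Replicate 1 had 30 regions on the mitochondrial chromosome, which the rule leaves out, where replicate 3 and the pooled list had 0. They are noted because this signal lies outside the regions compared. The regions of a library are not replicates, so 30 against 0 is a description and was not tested. Their signal values ran from 7.43 to 80.1, and 9 of them were among the 10 strongest regions of replicate 1. Had they been kept, 27 would have been among its 5000 strongest. Their cause was not tested.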

How the results depend on the processing

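Keeping the 1000, 2000 or 10000 strongest regions gave 43, 102 or 1074 shared regions, and a distance of 100 bp gave 235, against 369. With 1000 kept, the X share was 27.9%, the promoter share 55.8%, the homeodomain word share 23.3% and the median GC content 44.8%. With 2000 kept the median GC content was 44.5%. With 10000 kept it was 41.3% and the promoter share 43.8%. Promoter windows of 500 bp upstream to 100 bp downstream gave 33.6%, against 28.3% of unmatched summits. Windows of 2000 bp upstream gave 66.7% against 62.0%, and starts of protein-coding genes alone 33.3% against 30.9%. Within 50 bp of the summit the homeodomain word share was 8.13% and the median GC content 44.6%. The 369 strongest regions of each replicate alone were also taken. Those of replicate 3 had an X share of 18.4%, a promoter share of 38.2% and a tRNA share of 1.08%. Their homeodomain word share was 13.8% and their median GC content 41.8%. Those of replicate 1 had 27.9%, 54.2%, 3.25%, 18.4% and 41.3%, in the same order. The X and promoter shares of replicate 1 alone were thus above the 22.2% and 49.6% of the shared regions. The cause of these shifts was not tested, beyond the windows, which change what is counted. The other 39 values stayed within the interval of the value reported, or within 1.5 times for counts. Median GC content and the X and tRNA shares were higher in shared than in unmatched regions in all 5 settings of number kept and distance, some by little. With 1000 kept, the tRNA share was 2.33% of only 43 shared regions, against 2.09% of unmatched ones, too few regions to tell them apart. At a distance of 500 bp the X shares were 21.8% and 19.8%, and they lay closer still with 10000 kept. No intervals were computed for these differences, so only their direction is given. No paired analysis was possible because the replicates form 1 group. Read depth is unknown, so differences from depth between the lists could not be measured.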
